A study of Mus musculus with 12 samples.

Results

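The sperm-egg fusion genes described here are *Izumo1*, *Izumo2*, *Izumo3*, *Izumo4*, *Spaca6*, *Tmem95*, *Dcst1* and *Dcst2*, which encode sperm proteins that act where the sperm joins the egg membrane, together with the close relatives of *Izumo1*. They were taken by gene symbol. All 8 were found among the 51826 entries of the sperm count table and all 8 among the 23502 entries of the testis count table.

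RNA-seq was performed in mice to ask which transcripts depend on *Xap5l* and on *Xap5*, which encode a pair of related nuclear proteins. Sperm released from the cauda epididymis at P56 were compared between WT mice and *Xap5l* KO mice, and whole testes at P16 were compared between WT mice and *Xap5* cKO mice, with 3 libraries in each of the 4 groups and no treatment in any. The sample labels number the 3 libraries of a group as replicates. Whether a library held the material of a single mouse is not given in the sources used here.

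The *Xap5l* KO was a constitutive CRISPR-Cas9 deletion made on C57BL/6J and kept as a single line. In the *Xap5* cKO, a floxed *Xap5* allele was deleted by Cre from a *Stra8-GFPCre* knockin, called Stra8-EGFPCre in the labels, which is active in male germ cells around the start of meiosis. Somatic cells of the cKO testis kept *Xap5*, and whole testes hold Sertoli, Leydig, peritubular and blood cells beside the germ cells. The sample labels give the controls only as WT. Where the study describes the appearance and sterility of the cKO males, it names males with the floxed allele (*Xap5* fl/Y) as controls, and whether the WT testis libraries came from such males is not stated.

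Fertilization ends with fusion of the sperm and egg membranes. After the acrosome reaction, Izumo1 on the sperm head binds Juno, the product of *Izumo1r*, on the egg, and the tetraspanins Cd9 and Cd81 act on the egg side. Several further sperm membrane proteins are needed for fusion after the sperm has attached. The transcripts of such genes are made in the testis during meiosis and spermatid development, and mature sperm carry leftover RNA while making little or none.

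Total counts for WT sperm were 40198158, 38881197 and 41716085, and for *Xap5l* KO sperm 43373223, 49355735 and 52308452. In testes the totals were 34063501, 36759054 and 35406808 for WT and 32251198, 33754554 and 32995710 for *Xap5* cKO. Levels are given as CPM, with library sizes scaled by edgeR's TMM method. A gene was called up- or downregulated when edgeR's quasi-likelihood test gave a Benjamini-Hochberg adjusted p below 0.05 over all genes tested in that tissue and the fold change exceeded 2. With 3 libraries against 3, an exact two-sided permutation test of a single gene cannot fall below p = 0.1, so only the fits across all genes were used.

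The knocked-out genes were examined first. *Xap5l*, listed as *Fam50b*, had 17.4, 10.5 and 9.04 CPM in the WT sperm libraries and 0.514, 0.415 and 0.137 CPM in *Xap5l* KO sperm. *Xap5*, listed as *Fam50a*, had 24.4, 22.3 and 27.5 CPM in WT testes and 20.9, 18.1 and 19.8 CPM in *Xap5* cKO testes. Every knockout library lay below every WT library in both cases. In *Xap5* cKO testes *Fam50b* fell as well, from 15.8, 14.8 and 5.48 CPM in WT to 0.187, 0 and 0.213 CPM (log2 fold change -6.48, edgeR adjusted p = 8.09e-05). *Fam50a* in sperm had 16.6, 16.8 and 14.9 CPM for WT and 8.45, 8.79 and 11.1 CPM for *Xap5l* KO, lower in every library and not past the fold change threshold (log2 fold change -0.76, edgeR adjusted p = 0.0393). In testes the log2 fold change of *Fam50a* was -0.33 (SE 0.126, edgeR adjusted p = 0.0495), which did not reach the fold change threshold in these whole testes.

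Some libraries stood apart within their group. The mitochondrial share of counts was 10.5% in *Xap5l* KO replicate 3, while replicates 1 and 2 of that genotype had 27.4% and 18.6%. TMM factors were 0.821 and 0.808 in replicate 1 of WT and *Xap5l* KO sperm and between 1.08 and 1.12 in the other sperm libraries. Of the 1589 genes upregulated in *Xap5l* KO sperm, *Xap5l* KO replicate 3 was the lowest of the *Xap5l* KO libraries for 73.3% and the highest for 13.5%, and WT replicate 1 was the highest WT library for 74.3%. Genes of red blood cells summed to 22840 CPM in WT sperm replicate 1, against 4507 and 6965 CPM in the other WT libraries. In testes, WT replicate 3 was the lowest WT library for 76.7% of the 1837 downregulated genes, and markers of pachytene spermatocytes summed to 1143 CPM there, against 2251 and 2179 CPM in the other WT libraries. Over all tested genes the shares were nearer to each other, with *Xap5l* KO replicate 3 the lowest of its group for 39.3% and the highest for 41.3%, WT sperm replicate 1 the highest for 40.2% and WT testes replicate 3 the lowest for 39.5%. Counts of called fusion genes are given with and without these libraries.

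In sperm, every fusion gene was higher in the *Xap5l* KO libraries than in the WT libraries. All 8 passed edgeR's filter on low counts, and 5 were upregulated (*Izumo1*, *Izumo3*, *Tmem95*, *Dcst1* and *Dcst2*), where 7.59% of the 20945 tested genes were upregulated. None of the 8 was downregulated by edgeR, where 1.27% of tested genes were; at an unadjusted p under 0.05 with the same fold change 0 were lower, and DESeq2 also gave 0. In all 8, each *Xap5l* KO library lay above each WT library, a separation seen for 19.2% of tested genes. The median log2 fold change of the 8 genes was 1.40, against -0.08 over all tested genes. These are bulk samples, so that a change in the share of a cell type and a change in RNA per cell cannot be told apart.

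*Izumo1* encodes the sperm ligand for Juno. It stood at 10.4, 8.91 and 8.20 CPM in WT sperm and at 35.5, 32.2 and 19.0 CPM in *Xap5l* KO sperm, from between 344 and 1783 counts a library. The WT libraries lay close together, whereas *Xap5l* KO replicate 3 was well below the other *Xap5l* KO libraries and still above all WT libraries. The means were 9.18 ± 1.14 and 28.9 ± 8.74 CPM (SD, n = 3), a 3.14-fold rise with a log2 fold change of 1.65 (SE 0.264, edgeR adjusted p = 0.0128). Without *Xap5l* KO replicate 3 the log2 fold change was 1.96 (edgeR adjusted p = 0.00102). The call was lost on removal of WT replicate 2 (edgeR adjusted p = 0.0750), WT replicate 3 (edgeR adjusted p = 0.0812) or *Xap5l* KO replicate 2 (edgeR adjusted p = 0.0585).

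The relatives of *Izumo1* share its Izumo domain. *Izumo3*, which is needed for forming the acrosome, had 9.77, 9.53 and 8.74 CPM in WT sperm and 23.2, 21.3 and 31.1 CPM in *Xap5l* KO sperm. The groups were separated, and here *Xap5l* KO replicate 3 was the highest library. The rise was 2.70-fold (log2 fold change 1.43, SE 0.214, edgeR adjusted p = 0.0122). *Izumo2* had 17.6, 13.2 and 12.1 CPM in WT sperm and 25.8, 21.0 and 39.0 CPM in *Xap5l* KO sperm. The groups did not overlap, *Xap5l* KO replicate 3 was again the highest, and *Xap5l* KO replicate 2 came nearest to WT replicate 1. The log2 fold change of *Izumo2* was 0.997 (SE 0.270, edgeR adjusted p = 0.0429), which passed the test and fell just short of the fold change threshold. It passed the threshold with RLE size factors (1.03), without a filter on low counts (1.06), with at least 10 counts required in every library (1.02), in DESeq2 (1.03) and without WT replicate 1 (1.16). The test was not passed with library size only (log2 fold change 1.06, edgeR adjusted p = 0.0661), nor on removal of *Xap5l* KO replicate 1 (1.06, edgeR adjusted p = 0.0812) or replicate 2 (1.17, edgeR adjusted p = 0.0708). It was also not passed on removal of WT replicate 2 (0.93, edgeR adjusted p = 0.160) or WT replicate 3 (0.88, edgeR adjusted p = 0.173). Without *Xap5l* KO replicate 3 the test was passed at the lowest log2 fold change of all fits (0.784, edgeR adjusted p = 0.0409).

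*Izumo4* encodes a form without a membrane-spanning segment. Its CPM values were 11.4, 8.70 and 9.15 in WT sperm, against 16.8, 16.4 and 13.7 in *Xap5l* KO sperm. The lowest *Xap5l* KO library exceeded the highest WT library by a small margin. The log2 fold change was 0.68 (SE 0.205, edgeR adjusted p = 0.0565), so the difference was not past the threshold. With the any-fold rule (edgeR adjusted p below 0.05), 6 of the 8 genes were higher, *Izumo2* joining the 5 upregulated genes, where 9.02% of tested genes were. The place of *Izumo2* in this count depended on single libraries, as its adjusted p values show. *Izumo4* passed by the any-fold rule in DESeq2 (adjusted p = 0.0237), with at least 10 counts required in every library (edgeR adjusted p = 0.0488), without WT replicate 1 (edgeR adjusted p = 0.0407) and without *Xap5l* KO replicate 3 (edgeR adjusted p = 0.0209).

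**Figure D1:**
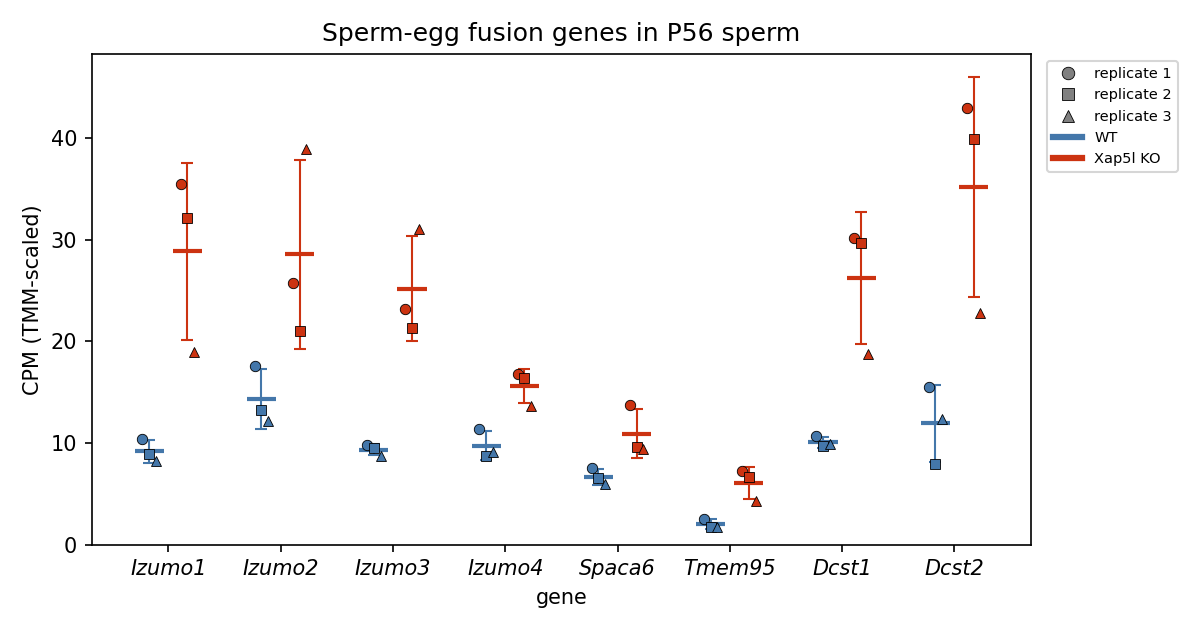
CPM of the 8 fusion genes (horizontal axis) in P56 sperm on a linear vertical axis from 0, with a point for each of 3 WT (blue) and 3 *Xap5l* KO (red) libraries, thick lines for the mean and bars for the SD. All *Xap5l* KO points lie above all WT points of the same gene, and replicate 3 (triangle) is the highest *Xap5l* KO library for *Izumo2* and *Izumo3* and the lowest for the other 6 genes.

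*Spaca6*, *Tmem95*, *Dcst1* and *Dcst2* encode membrane proteins that sperm need for fusion. *Spaca6*, of the immunoglobulin superfamily, had 7.49, 6.58 and 5.96 CPM in WT sperm and 13.7, 9.62 and 9.44 CPM in *Xap5l* KO sperm. *Xap5l* KO replicate 1 was the highest, and the other *Xap5l* KO libraries sat a little above WT replicate 1. Its log2 fold change was 0.71 (SE 0.227, edgeR adjusted p = 0.0672), not past the threshold. By the any-fold rule it passed in DESeq2 (adjusted p = 0.0331) and without *Xap5l* KO replicate 3 (edgeR adjusted p = 0.0285). *Tmem95*, a small single-pass protein, had 2.55, 1.71 and 1.75 CPM in WT sperm and 7.25, 6.63 and 4.27 CPM in *Xap5l* KO sperm, from between 72 and 367 counts a library. The groups were separated, with *Xap5l* KO replicate 3 the lowest of its group. *Tmem95* rose 3.02-fold (log2 fold change 1.60, SE 0.297, edgeR adjusted p = 0.0163).

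*Dcst1* and *Dcst2* encode multi-pass proteins with a DC-STAMP domain that depend on each other in sperm. *Dcst1* had 10.7, 9.70 and 9.86 CPM in WT sperm and 30.2, 29.7 and 18.8 CPM in *Xap5l* KO sperm, and *Dcst2* had 15.5, 7.96 and 12.4 CPM in WT sperm and 43.0, 39.9 and 22.8 CPM in *Xap5l* KO sperm. For both genes *Xap5l* KO replicates 1 and 2 were close together, *Xap5l* KO replicate 3 was lower, and no *Xap5l* KO library fell among the WT libraries. *Dcst1* rose 2.60-fold (log2 fold change 1.38, SE 0.232, edgeR adjusted p = 0.0139). *Dcst2* rose 2.95-fold (log2 fold change 1.56, SE 0.313, edgeR adjusted p = 0.0190), with a WT spread of 11.9 ± 3.78 CPM (SD, n = 3) that was wider than for *Dcst1* (10.1 ± 0.543 CPM).

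The sperm calls depended on single libraries. When any of WT replicate 2, WT replicate 3 and *Xap5l* KO replicate 2 was left out, the edgeR adjusted p of the 5 upregulated genes lay between 0.0565 and 0.0916 and the count fell to 0, in fits that called 1 gene upregulated in the whole table. The log2 fold changes of the 5 genes in those fits were between 1.28 and 1.62. Without *Xap5l* KO replicate 1 the count was 4, with *Dcst2* at an edgeR adjusted p of 0.0568. Without *Xap5l* KO replicate 3 it was 5 and without WT replicate 1 it was 6.

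Ratios between the counts of fusion genes in the same library do not depend on library size. *Izumo2* had 1.69, 1.49 and 1.48 counts for each *Izumo1* count in WT sperm, against 0.726, 0.653 and 2.05 in *Xap5l* KO sperm. In *Xap5l* KO replicates 1 and 2 this ratio lay below every WT library, and in *Xap5l* KO replicate 3 it lay above every WT library. The ratio of *Izumo3* to *Izumo1* was 0.936, 1.07 and 1.07 in WT sperm, against 0.655, 0.663 and 1.64 in *Xap5l* KO sperm. Here too *Xap5l* KO replicate 3 lay above every WT library and *Xap5l* KO replicates 1 and 2 lay below. This split of *Xap5l* KO replicate 3 from the other *Xap5l* KO libraries was chosen for description after its values were seen.

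*Spaca6* had 0.718, 0.739 and 0.726 counts for each *Izumo1* count in WT sperm, against 0.387, 0.299 and 0.498 in *Xap5l* KO sperm, and all *Xap5l* KO libraries lay below all WT libraries. The ratio of *Izumo4* to *Izumo1* was 1.09, 0.976 and 1.12 in WT sperm, against 0.473, 0.510 and 0.722 in *Xap5l* KO sperm, also without overlap. By contrast, *Tmem95* to *Izumo1* stood at 0.244, 0.192 and 0.213 in WT sperm and at 0.205, 0.206 and 0.225 in *Xap5l* KO sperm, and these groups overlapped. *Dcst2* to *Dcst1* overlapped too, with 1.44, 0.821 and 1.26 in WT sperm, against 1.42, 1.34 and 1.22 in *Xap5l* KO sperm. WT replicate 2 had the lowest ratio of *Dcst2* to *Dcst1* of all 6 libraries. The ratio of *Dcst1* to *Izumo1* was 1.03, 1.09 and 1.20 in WT sperm, against 0.852, 0.923 and 0.989 in *Xap5l* KO sperm, close but without overlap. *Izumo1* had the largest log2 fold change of the fusion genes (1.65), so lower ratios to it restate the fold changes given above. Ratios were not computed for other genes, and how common such a separation is was not tested.

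**Figure D2:**
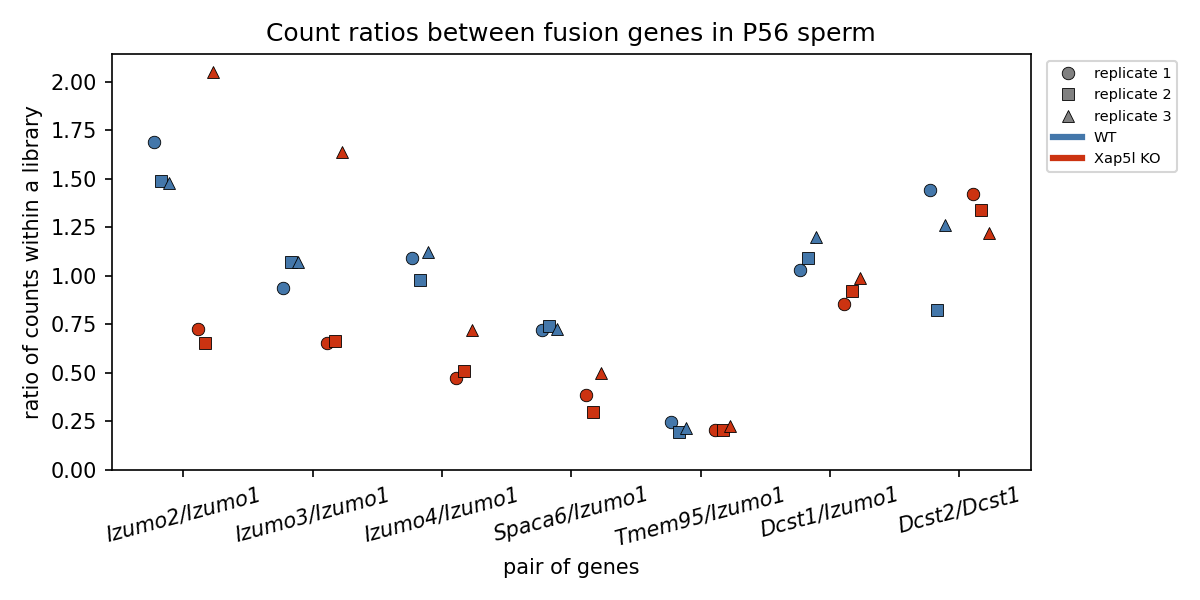
Ratio of counts between pairs of fusion genes within each P56 sperm library (vertical axis, no unit, from 0; pairs on the horizontal axis), with a point for each of 3 WT (blue) and 3 *Xap5l* KO (red) libraries. For *Izumo2*/*Izumo1* and *Izumo3*/*Izumo1*, *Xap5l* KO replicate 3 (triangle) lies above the WT libraries and the other *Xap5l* KO libraries lie below them.

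Levels between genes were compared per kilobase of exon (CPM divided by the merged exon length). In WT sperm *Izumo2* was the highest at 19.8 ± 4.02 CPM per kb (SD, n = 3), followed by *Izumo3* at 7.39 ± 0.426 CPM per kb, and their ranges were apart. *Dcst2* (5.23 ± 1.65), *Tmem95* (3.77 ± 0.892), *Izumo4* (3.48 ± 0.513) and *Izumo1* (3.07 ± 0.382 CPM per kb) came next, each overlapping its neighbour in the order. *Dcst1* at 1.93 ± 0.104 and *Spaca6* at 0.945 ± 0.109 CPM per kb were the lowest, and both stood apart from the gene above. In *Xap5l* KO sperm *Izumo2* was again first at 39.5 ± 12.8 and *Spaca6* last at 1.55 ± 0.343 CPM per kb. *Izumo1* at 9.65 ± 2.92 CPM per kb lay above *Izumo4* at 5.58 ± 0.600 CPM per kb there, with ranges apart, whereas the ranges of these genes overlapped in WT sperm. The annotated exons of *Tmem95* total only 531 bases and those of *Spaca6* 7067 bases, and a length that leaves out or adds untranslated sequence moves these values. Lengths were merged over all annotated exons of a gene, giving 5241 bases for *Dcst1*, 2285 for *Dcst2* and 2799 for *Izumo4*. Before this division *Dcst1* and *Dcst2* were near each other in WT sperm (10.1 and 11.9 CPM). The order of genes therefore rests on these lengths as well as on CPM.

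The pattern of *Izumo1* over the 6 sperm libraries was set against 16238 genes by Pearson r of log2 CPM. The genes most like *Izumo1* were *Dpf3* (r = 0.9995), *Gm13570* (r = 0.9994) and *Apobec4* (r = 0.9994). All points share the same 6 libraries and the genotype difference, and these values are a description. Among the fusion genes themselves, r was highest between *Izumo1* and *Dcst1* (0.997) and lowest between *Izumo2* and *Dcst2* (0.667).

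Of 3 further fusion factors, 1 was upregulated in *Xap5l* KO sperm, where 7.59% of tested genes were. *Fimp*, listed as *4930451I11Rik* and needed for fusion, had 4.31, 3.66 and 2.85 CPM in WT sperm and 9.08, 6.28 and 6.85 CPM in *Xap5l* KO sperm (log2 fold change 1.04, SE 0.254, edgeR adjusted p = 0.0323). The groups did not overlap. *Tmem81*, a partner of Izumo1 and Spaca6, had 2.19, 2.12 and 2.22 CPM in WT sperm and 3.77, 3.29 and 3.55 CPM in *Xap5l* KO sperm (log2 fold change 0.70, edgeR adjusted p = 0.0798). Like *Fimp*, it was separated between the groups, as 19.2% of tested genes were in this direction. *Tmem81* was not past the threshold. *Llcfc1*, also called *Sof1* and listed as *1700034O15Rik*, had 252, 123 and 174 CPM in WT sperm and 288, 170 and 155 CPM in *Xap5l* KO sperm, and these groups overlapped (log2 fold change 0.16, edgeR adjusted p = 0.756). *Fimp* kept its call on removal of WT replicate 1, and also of *Xap5l* KO replicate 3, and lost it on removal of any other library, giving 0 of the 3. With library size only the count was also 0.

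Of the genes for the egg-side partners, none was called in sperm by edgeR. *Izumo1r* had between 2 and 12 counts in each of the 6 libraries and was not tested. *Cd9* had 17.4, 23.7 and 18.2 CPM in WT sperm and 10.9, 12.8 and 21.7 CPM in *Xap5l* KO sperm (log2 fold change -0.39, edgeR adjusted p = 0.347), with overlap. *Cd81* had 8.65, 11.3 and 9.86 CPM in WT sperm and 8.48, 7.69 and 7.67 CPM in *Xap5l* KO sperm (log2 fold change -0.33, edgeR adjusted p = 0.274), with all *Xap5l* KO libraries lower, as for 19.2% of tested genes. Of the partners 0 were called by edgeR, 0 passed at an unadjusted p under 0.05 with a fold change above 2, and DESeq2 gave 0.

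A list of 34 held genes of the acrosome, of sperm interaction with the egg coat and of other fertilization steps beside fusion. They are called egg coat genes below, for this interaction and not as parts of the coat. Of these, 23 were upregulated in *Xap5l* KO sperm and 0 downregulated by edgeR (0 at an unadjusted p under 0.05 and 0 by DESeq2), where 7.59% and 1.27% of tested genes were, with a median log2 fold change of 1.33 against -0.08 over all tested genes. *Spaca1*, an acrosomal membrane protein, had 11.7, 12.9 and 8.40 CPM in WT sperm and 43.7, 38.2 and 33.2 CPM in *Xap5l* KO sperm, with no overlap (log2 fold change 1.80, edgeR adjusted p = 0.0118). *Acr*, which encodes the protease acrosin, had 29.6, 20.5 and 24.6 CPM in WT sperm and 117, 92.9 and 25.3 CPM in *Xap5l* KO sperm (log2 fold change 1.65, edgeR adjusted p = 0.0462). Here *Xap5l* KO replicate 3 fell among the WT libraries. *Tmem190* and *Spesp1*, also of the acrosome, rose by log2 fold changes of 1.65 and 1.64. On removal of WT replicates 1, 2 and 3 the count of 23 became 23, 0 and 0, and on removal of *Xap5l* KO replicates 1, 2 and 3 it became 11, 0 and 23.

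The summed CPM of these 34 genes was 3763, 2386 and 2128 in WT sperm, against 5202, 4387 and 5209 in *Xap5l* KO sperm, with *Crisp2* the most abundant and not called. *Xap5l* KO replicate 3 was the lowest *Xap5l* KO library for 25 of them and the highest for 7 (*Zp3r*, *Lyzl4*, *Lyzl6*, *Calr3*, *Cd46*, *Crisp2* and *Plcz1*). For the fusion genes it was the lowest for 6 and the highest for *Izumo2* and *Izumo3*.

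Marker lists of germ cell stages were examined beside the fusion genes in sperm, where 7.59% of all tested genes were upregulated and 1.27% downregulated. Markers of elongating spermatids, which check the sperm label, summed to 141800, 57860 and 69600 CPM in WT sperm and 91780, 51060 and 70700 CPM in *Xap5l* KO sperm, with *Smcp* the most abundant and no marker at 0 in all libraries. Of its 9 genes 1 (*Akap4*) was upregulated (2 without WT replicate 1, 2 without *Xap5l* KO replicate 3 and 0 on removal of any other library). DESeq2 called 3, and edgeR called 2 without a filter and 2 with library size only. The round spermatid list had 6 of 8 genes upregulated, and 3 of its genes (*Acrv1*, *Spaca1* and *Lyzl4*) are also among the 34 egg coat genes. Its count became 6, 0 and 0 on removal of WT replicates 1, 2 and 3, and 5, 0 and 7 on removal of *Xap5l* KO replicates 1, 2 and 3. Its sum was 784, 476 and 502 CPM in WT sperm and 1142, 927 and 940 CPM in *Xap5l* KO sperm, with *Tssk2* the most abundant and not called. The pachytene list had 3 of 8 genes upregulated (3, 0 and 0, and 0, 0 and 5, on the same removals) and summed to 2634, 1680 and 1650 CPM in WT sperm and 3483, 3353 and 3507 CPM in *Xap5l* KO sperm, with *Pgk2* the most abundant. In both of these lists the sums were higher in every *Xap5l* KO library, and no marker was at 0 in all libraries. Their part in the result for the fusion genes was not tested.

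Of the 6 tested spermatogonia genes (*Dmrtb1* the most abundant) and the 7 tested leptotene and zygotene genes (*Sycp1* the most abundant), edgeR called 0, while at an unadjusted p under 0.05 with the same fold change 1 and 0 rose, and DESeq2 called 1 and 0. Without *Xap5l* KO replicate 3 edgeR called 1 spermatogonia gene, as it did with library size only and without a filter. The spermatogonia genes summed to 197, 119 and 135 CPM in WT sperm and 383, 319 and 170 CPM in *Xap5l* KO sperm, mostly *Dmrtb1*. The leptotene and zygotene genes summed to between 16.6 and 27.0 CPM in every library.

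Markers of somatic cells were present in the sperm libraries of both genotypes. For all somatic lists in sperm, the share of tested genes downregulated was 1.27% and the share upregulated 7.59%. The leukocyte list had 2 of 8 genes downregulated (*Cd14* and *Laptm5*), a count that was 5 without *Xap5l* KO replicate 3 and 0 on removal of any other library or with library size only, and summed to 904, 860 and 904 CPM in WT sperm and 175, 430 and 550 CPM in *Xap5l* KO sperm, with *Lyz2* the most abundant and no marker at 0. It was lower in every *Xap5l* KO library and lowest in *Xap5l* KO replicate 1, and its part in the fusion gene result was not tested. Epididymal epithelium summed to 6527, 8754 and 7492 CPM in WT sperm and 5333, 4600 and 6474 CPM in *Xap5l* KO sperm, led by *Crisp1*, and general epithelium, led by *Krt19*, to between 364 and 434 CPM in WT sperm and between 270 and 323 CPM in *Xap5l* KO sperm. In both of these lists edgeR called 0 genes, 0 passed at an unadjusted p under 0.05 with the same fold change, and DESeq2 called 0. Without WT replicate 1, and also without *Xap5l* KO replicate 3, 1 epididymal gene was downregulated. The red blood cell genes, led by *Hbb-bs*, summed to 22840, 4507 and 6965 CPM in WT sperm and 5547, 1643 and 3751 CPM in *Xap5l* KO sperm; edgeR called 0 of 5, 4 were lower at an unadjusted p under 0.05, and DESeq2 called 0. With library size only edgeR called 3 of them downregulated.

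Among testicular somatic lists in sperm, 1 of 7 tested Sertoli genes was downregulated (*Cldn11*; 0 on removal of WT replicate 2, WT replicate 3 or KO replicate 2), and the list summed to 640, 721 and 761 CPM in WT sperm and 1330, 1271 and 1053 CPM in *Xap5l* KO sperm, nearly all of it *Clu*, which epididymal cells also express. Leydig genes, led by *Insl3*, summed to between 15.7 and 35.9 CPM in WT sperm and between 7.24 and 15.3 CPM in *Xap5l* KO sperm, with 0 of 5 tested genes called by edgeR, 3 lower at an unadjusted p under 0.05 and 1 by DESeq2, and 1 by edgeR with library size only. Peritubular myoid genes, led by *Actg2*, summed to between 69.1 and 96.3 CPM in WT sperm and between 126 and 155 CPM in *Xap5l* KO sperm, with 0 of 6 called by edgeR, 0 at an unadjusted p under 0.05 with the same fold change and 0 by DESeq2, and 1 upregulated without WT replicate 1.

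In P16 testes most fusion genes were at low levels, and none was called as different between WT and *Xap5* cKO. The filter on low counts passed 4 of the 8 (*Izumo1*, *Izumo4*, *Spaca6* and *Dcst2*). By edgeR 0 of these were downregulated, where 10.9% of the 16821 tested genes were, and 0 were upregulated, where 4.15% were. At an unadjusted p under 0.05 with a fold change above 2, 2 were lower (*Izumo1* and *Dcst2*) and 0 higher, and DESeq2 called 0 in either direction. Here and for the marker lists, no share of all tested genes is given at the unadjusted threshold, so such counts are descriptions only. In *Izumo1* and *Dcst2*, all *Xap5* cKO libraries lay below all WT libraries, as they did for 32.4% of tested genes. All *Xap5* cKO libraries lay above all WT libraries in 0 of the 4, against 29.9% of tested genes.

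*Izumo1* had 54, 39 and 32 counts in WT testes, against 5, 15 and 23 in *Xap5* cKO testes. The groups did not overlap, and *Xap5* cKO replicate 3 came nearest to WT. The means were 1.19 ± 0.374 and 0.431 ± 0.272 CPM (SD, n = 3), a log2 fold change of -1.45 (SE 0.594, edgeR adjusted p = 0.0665). Without *Xap5* cKO replicate 3 the log2 fold change was -1.98 (edgeR adjusted p = 0.0416) and *Izumo1* was called, and without WT replicate 3 it was -1.62 (edgeR adjusted p = 0.0699). The fall was smaller without WT replicate 1 (-1.18, edgeR adjusted p = 0.219) and without *Xap5* cKO replicate 1 (-1.05, edgeR adjusted p = 0.166).

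*Dcst2* had 35, 25 and 27 counts in WT testes, against 8, 10 and 16 in *Xap5* cKO testes. Every *Xap5* cKO library was below every WT library, and *Xap5* cKO replicate 3 was again the highest of its group. The log2 fold change was -1.26 (SE 0.535, edgeR adjusted p = 0.0755). Its neighbour *Dcst1* had 3, 4 and 16 counts in WT testes, against 0, 8 and 0 in *Xap5* cKO testes, did not pass the filter, and overlapped between the groups.

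*Izumo4* had the highest level per kilobase in testes. Its counts were 722, 849 and 448 for WT, against 262, 270 and 423 for *Xap5* cKO. In CPM these were 21.5, 23.3 and 12.5 for WT and 8.15, 7.93 and 12.9 for *Xap5* cKO. WT replicate 3 and *Xap5* cKO replicate 3 met in the middle, so the groups overlapped. The log2 fold change was -0.98 (SE 0.274, edgeR adjusted p = 0.0138), which passed the test but not the fold change threshold. By the any-fold rule it was the only fusion gene that was lower, where 28.1% of tested genes were. Without WT replicate 3 it was -1.22 (edgeR adjusted p = 0.00141) and without *Xap5* cKO replicate 3 it was -1.25 (edgeR adjusted p = 0.00719), and *Izumo4* was called in both fits. The any-fold result was lost without WT replicate 2 (log2 fold change -0.82, edgeR adjusted p = 0.0578), without *Xap5* cKO replicate 1 (-0.87, edgeR adjusted p = 0.0593) and without *Xap5* cKO replicate 2 (-0.85, edgeR adjusted p = 0.0593).

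*Spaca6* had 95, 70 and 199 counts in WT testes, against 110, 146 and 152 in *Xap5* cKO testes. WT replicate 3 was the highest and WT replicates 1 and 2 the lowest of the 6 libraries. The log2 fold change was 0.26 (SE 0.378, edgeR adjusted p = 0.588). It was 0.79 without WT replicate 3 (edgeR adjusted p = 0.0558) and -0.03 without WT replicate 2 (edgeR adjusted p = 0.957).

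The remaining fusion genes had few or no counts in P16 testes and did not pass the filter. *Izumo2* had 0 counts in all 6 libraries, which held 205230825 counts together, and *Izumo3* had 1 count, in WT replicate 2. A count of 0 in a library allows up to 3 counts, which is between 0.0816 and 0.0930 CPM at these depths and covers counting error only. *Tmem95* had 11, 5 and 9 counts in WT testes, against 6, 7 and 12 in *Xap5* cKO testes, with overlap between the groups. No difference in these genes was detectable at this depth.

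**Figure D3:**
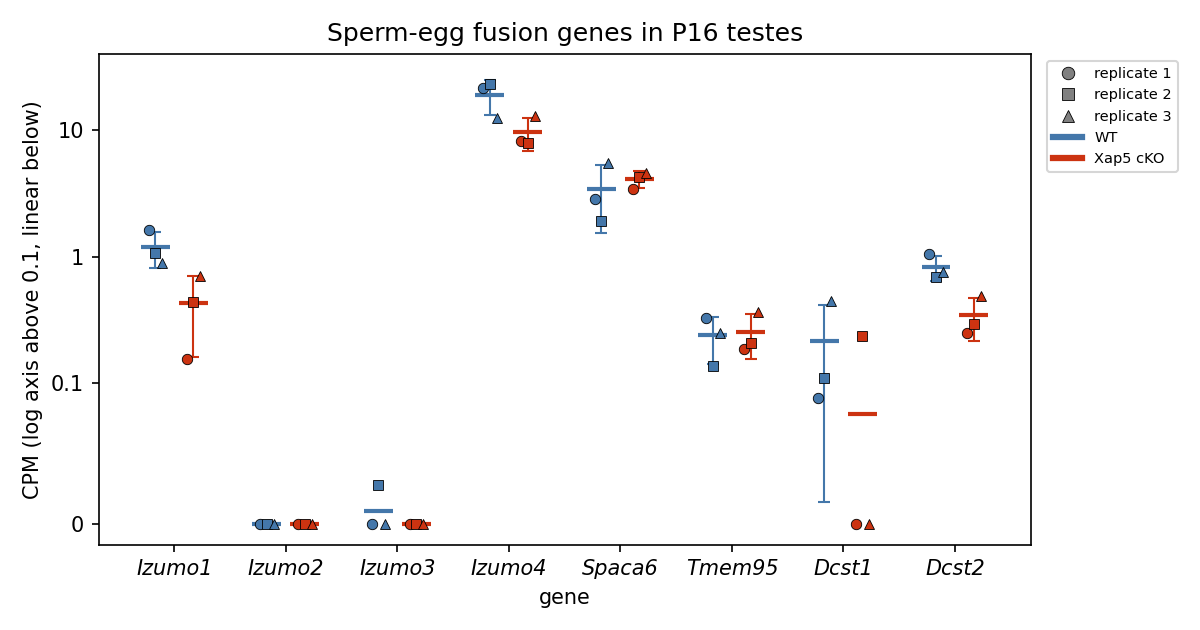
CPM of the 8 fusion genes (horizontal axis) in P16 testes on a vertical axis that is logarithmic above 0.1 and linear below, with a point for each of 3 WT (blue) and 3 *Xap5* cKO (red) libraries, thick lines for the mean and bars for the SD where no library is at 0. *Izumo4* is the highest, *Izumo2* is at 0 in every library, and the groups are separated for *Izumo1* and *Dcst2* only.

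Per kilobase of exon, *Izumo4* stood at 6.82 ± 2.08 CPM per kb (SD, n = 3) in WT testes. *Spaca6* (0.485 ± 0.266), *Tmem95* (0.449 ± 0.180), *Izumo1* (0.397 ± 0.125) and *Dcst2* (0.362 ± 0.0831 CPM per kb) were apart from *Izumo4* and overlapped each other in turn. *Izumo2*, which was the highest of the 8 per kilobase in sperm, was at 0 in testes. Sperm and testes were deposited as separate tables, and no test was made between them. In *Xap5* cKO testes *Izumo4* was again the highest, at 3.44 ± 0.994 CPM per kb.

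Over the 6 testis libraries and 15220 genes, the genes most like *Izumo1* in log2 CPM were *Gm21297* (Pearson r = 0.9934), *Hypk* (0.9894) and *Dgcr6-2* (0.989). Those most like *Dcst2* were *Lzic* (0.9961), *Repin1* (0.9917) and *Celf6* (0.9911). As in sperm, these values describe the same 6 libraries. *Izumo1* and *Dcst2* had r = 0.944 with each other, while *Spaca6* had r = -0.257 with *Izumo1*.

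The other fusion factors gave little in testes. *Llcfc1* had 0 counts in all 6 libraries and *Fimp* had 1 count, in *Xap5* cKO replicate 1. *Tmem81* had 3.69, 5.10 and 3.84 CPM in WT testes and 5.25, 6.28 and 5.41 CPM in *Xap5* cKO testes, separated by a small margin (log2 fold change 0.42, edgeR adjusted p = 0.142). On the egg side, *Izumo1r* was at 0 counts in every WT library, against 16, 4 and 0 counts in the *Xap5* cKO libraries. *Cd9* had 25.8, 23.9 and 30.2 CPM in WT testes and 32.0, 42.1 and 35.2 CPM in *Xap5* cKO testes (log2 fold change 0.45, edgeR adjusted p = 0.0193). *Cd81* had 199, 192 and 216 CPM in WT testes and 313, 312 and 276 CPM in *Xap5* cKO testes (log2 fold change 0.57, edgeR adjusted p = 0.000183). Like *Tmem81*, both genes were higher in every *Xap5* cKO library, as 29.9% of tested genes were. Both were below the fold change threshold.

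Of the 34 egg coat genes, 33 were in the testis table, 21 passed the filter and 12 were downregulated, where 10.9% of tested genes were. By the any-fold rule 2 were higher, where 25.0% of tested genes were. *Adam3*, a sperm surface protein of egg coat binding, had 1697, 1369 and 223 counts in WT testes and 0 in each *Xap5* cKO library, at least 346-fold lower against a floor of 3 counts a library. *Acr* had 815, 954 and 403 counts in WT testes, against 2, 0 and 9 in *Xap5* cKO testes (log2 fold change -7.48, edgeR adjusted p = 3.28e-05). WT replicate 3 was the lowest WT library for both, and no *Xap5* cKO library came near it. *Crisp2* and *Adam2*, which encode further proteins of sperm-egg interaction, had log2 fold changes of -5.23 and -4.77. *Spam1*, *Hyal5*, *Zp3r*, *Spaca3* and *Prss37* had 0 counts in all 6 libraries. The list summed to 1949, 1846 and 1239 CPM in WT testes and 613, 655 and 781 CPM in *Xap5* cKO testes, with *Tex101* the most abundant.

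Of all genes tested in testes, 10.9% were downregulated. Pachytene markers were downregulated for 7 of 8 genes (median log2 fold change -4.14 against -0.01 over all tested genes). They summed to 2251, 2179 and 1143 CPM in WT testes and 211, 211 and 297 CPM in *Xap5* cKO testes, with *Hspa2* the most abundant and none at 0. The leptotene and zygotene list had 7 of 8 genes downregulated and summed to 1981, 2026 and 1751 CPM in WT testes and 822, 885 and 1123 CPM in *Xap5* cKO testes, led by *Sycp1*, and the spermatogonia list, led by *Uchl1*, had 3 of 8 genes downregulated and summed to between 588 and 597 CPM in WT testes and between 336 and 364 CPM in *Xap5* cKO testes. *Xap5* cKO replicate 3 was the highest *Xap5* cKO library for all 4 tested fusion genes. It was so for 35.9% of all tested genes and 43.9% of downregulated genes. This library also had the highest sum of its group in the pachytene list and in the leptotene and zygotene list. Its Sertoli sum (9518 CPM) was likewise the highest of the group, and its spermatogonia sum (336 CPM) was the lowest. The part of these cells in the fusion gene values was not tested.

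Of the elongating spermatid list, *Prm2* and *Smcp* had 0 counts in all libraries, the list summed to between 5.02 and 6.19 CPM, and *Gapdhs* was its most abundant gene. The round spermatid list summed to between 6.67 and 12.3 CPM, most of it *Spaca1*. In each of these lists 2 genes passed the filter and edgeR called 0 of them; at an unadjusted p under 0.05 with the same fold change 0 elongating and 1 round spermatid genes were lower, and DESeq2 called 0 in both.

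Sertoli markers summed to 4609, 5034 and 4820 CPM in WT testes and 8115, 8008 and 9518 CPM in *Xap5* cKO testes, with 1 of 8 upregulated (*Amh*), 7 of 8 higher by the any-fold rule (25.0% of tested genes) and *Clu* the most abundant. Leydig markers, led by *Hsd3b6*, had 4 of 7 genes upregulated (4, 2 and 3 on removal of WT replicates 1, 2 and 3, and 3, 3 and 7 on removal of *Xap5* cKO replicates 1, 2 and 3) and summed to 456, 268 and 362 CPM in WT testes and 930, 931 and 484 CPM in *Xap5* cKO testes. Leukocyte markers, led by *Lyz2*, had 7 of 8 upregulated (8, 5 and 3, and 4, 4 and 7, on the same removals) and summed to 116, 83.5 and 87.3 CPM in WT testes and 219, 234 and 170 CPM in *Xap5* cKO testes. Of all genes tested in testes, 4.15% were upregulated. No marker of these lists was at 0 in all libraries, and their part in the fusion gene values was not tested. General epithelium had 2 of 5 tested genes upregulated (*Krt18* and *Cldn4*), or 1 without *Xap5* cKO replicate 3. The count was 0 with at least 10 counts required in every library, which neither gene reached in every WT library. The sum of this list was lower in every *Xap5* cKO library, between 58.1 and 67.2 CPM in WT testes and between 46.7 and 54.9 CPM in *Xap5* cKO testes, most of it *Epcam*. Peritubular myoid markers (led by *Acta2*, 628, 516 and 674 CPM in WT and 788, 810 and 743 CPM in *Xap5* cKO) and red blood cell genes (led by *Hbb-bs*, between 32.1 and 95.7 CPM) had 0 genes called by edgeR, 0 at an unadjusted p under 0.05 with the same fold change and 0 by DESeq2. By the any-fold rule 3 of the 6 peritubular myoid genes were higher. Without *Xap5* cKO replicate 3, which held the lowest red blood cell sum, 2 red blood cell genes were upregulated. The epididymal list had *Crisp1*, *Lcn5*, *Lcn8* and *Ces5a* at 0 and summed to between 2.22 and 6.37 CPM, nearly all *Cst8*; 1 gene was tested, with 0 calls by edgeR, at an unadjusted p under 0.05 with the same fold change and by DESeq2, and 1 call on removal of WT replicate 1 and of *Xap5* cKO replicate 2.

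The positions of the fusion genes were read from the GENCODE vM21 annotation of GRCm38, where all are protein coding. *Izumo1* lies at chr7:45621811-45628823 and *Izumo2* at chr7:44708742-44719844, both on the plus strand, and *Izumo4* at chr10:80702184-80705373 and *Spaca6* at chr17:17827158-17843009, also on the plus strand. *Izumo3* lies at chr4:92144329-92147234 and *Tmem95* at chr11:69876684-69878018, both on the minus strand. *Dcst1* at chr3:89350219-89365253 on the minus strand and *Dcst2* at chr3:89361975-89377549 on the plus strand overlap as genes but share no exonic base.

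Some fusion genes share exonic bases with other annotated genes, and the sources used here do not state how reads in shared bases were assigned or whether strand was used. *Izumo1* shares 654 bases, 21.9% of its exonic length, with *Rasip1* on the same strand. *Rasip1* had 2.06, 1.57 and 2.27 CPM in WT sperm and 2.51, 3.14 and 2.16 CPM in *Xap5l* KO sperm, with overlap (log2 fold change 0.41, edgeR adjusted p = 0.337). In testes *Rasip1* had 15.8, 16.9 and 16.7 CPM in WT and 14.2, 14.0 and 12.4 CPM in *Xap5* cKO, from more counts than *Izumo1* in every library. Reads of the shared bases cannot be told apart in these tables. *Dcst1* shares 1268 bases (24.2%) with the pseudogene *Gm10702* on the opposite strand, which was at 0 counts in all sperm libraries. *Spaca6* shares 47 bases (0.7%) with *Mir125a*, which had 1 count in each sperm library. The start of *Izumo4* lies 207 bases from that of *Mob3a* on the opposite strand; *Mob3a* had 9.22, 11.1 and 12.4 CPM in WT sperm and 7.77, 9.19 and 7.21 CPM in *Xap5l* KO sperm (log2 fold change -0.44, edgeR adjusted p = 0.175).

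Promoter windows from 250 bases before to 50 bases after the gene start were taken from RefSeq (GRCm38.p6), where 7 of the 8 fusion genes matched and *Izumo4* did not. The windows were searched on both strands for GGGCGGGG, a motif named in the study, for TGACGTCA, the full cAMP response element, and for GTTGCC, a part of the RFX box. None of these letter runs contains another. Of the 32851 windows in RefSeq, 17.6% hold GGGCGGGG, 1.79% hold TGACGTCA and 12.5% hold GTTGCC. *Izumo1* was the only fusion gene with GGGCGGGG, at positions -79 and -28 from the start, and 5.37% of all windows hold it at least 2 times. It was also the only fusion gene with TGACGTCA, at position -96. *Spaca6* had GTTGCC on the minus strand at position -53 from its RefSeq start at 17830975, which lies inside the gene as GENCODE draws it from 17827158, and no other fusion gene had any of the 3 motifs. These matches are descriptions of the sequence. The *Izumo1* window, the only one with more than a single motif, is chr7:45621561-45621860 on the plus strand of GRCm38.p6 and is printed with the motifs in capitals.
Izumo1: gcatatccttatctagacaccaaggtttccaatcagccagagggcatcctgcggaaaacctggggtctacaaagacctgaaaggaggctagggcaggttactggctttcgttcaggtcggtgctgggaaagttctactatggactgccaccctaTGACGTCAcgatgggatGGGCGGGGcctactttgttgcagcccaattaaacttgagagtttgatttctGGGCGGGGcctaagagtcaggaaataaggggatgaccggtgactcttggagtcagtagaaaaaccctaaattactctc

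*Dcst1* and *Dcst2*, which both rose in *Xap5l* KO sperm, start back to back in RefSeq. In GENCODE the start of *Dcst2*, at 89361975, lies inside *Dcst1* instead. The RefSeq starts, at 89365253 on the minus strand and 89365319 on the plus strand of chromosome 3, are 66 bases apart, and their windows share the 165 bases of chr3:89365204-89365368. The *Dcst2* window (chr3:89365069-89365368, plus strand, GRCm38.p6) is shown because it holds both starts, with the stretch between them in capitals.
Dcst2: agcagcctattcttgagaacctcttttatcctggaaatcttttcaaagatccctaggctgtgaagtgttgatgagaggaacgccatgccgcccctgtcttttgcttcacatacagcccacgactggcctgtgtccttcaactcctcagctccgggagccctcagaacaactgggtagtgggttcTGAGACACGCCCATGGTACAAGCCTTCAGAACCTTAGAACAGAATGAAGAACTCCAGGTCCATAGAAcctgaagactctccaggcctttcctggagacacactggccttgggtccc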

How the data were processed

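RNA-seq was measured in 12 libraries. The authors selected poly(A) RNA, trimmed reads with Trimmomatic 0.36, mapped them to GRCm38 with HISAT2 2.1.0, used StringTie on the mapped reads and FPKM for levels in the paper, and deposited gene counts as whole numbers, in separate tables for sperm and testes, without normalization. The tool that made the count tables, the use of strand and the treatment of reads that map to several genes are not given in the sources used here.

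Each tissue was fitted on its own with genotype as the only term. edgeR 4.0.16 (R 4.3.3) filtered genes with filterByExpr, scaled libraries by TMM and tested them with its quasi-likelihood test, two-sided, with Benjamini-Hochberg adjustment over all genes tested. SE belongs to the log2 fold change. The fits were also tested on simulated data. Alternatives were DESeq2 1.42.0, other filters, other scalings and thresholds, a replicate block and leaving out each library. Groups at 3 or fewer counts in each library gave lower bounds only.

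The fusion genes, the lists and the rule for named genes were chosen with earlier results of these data known. Named were the 8 fusion genes, all genes of the fusion factor and egg partner lists, the 4 called egg coat genes with the largest rise or fall, the knocked-out genes, the gene of highest CPM in every marker list, the 3 genes most like *Izumo1* and, in testes, *Dcst2* among those of at least 1 CPM, and genes sharing exonic bases or lying within 1 kb of a start. Any other gene was named after its values were seen. Python 3.11.15, pandas 2.3.3 and matplotlib 3.10.9 were used for lists, sequences and plots.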

Additional observations from a re-analysis of the deposited data

How the results depend on the processing

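The 8 fusion genes kept a positive log2 fold change in sperm under every alternative. The 5 upregulated genes fell to 0 at an adjusted p under 0.01, where all genes gave 0 up- and 0 downregulated. Leaving out 1 library at a time gave between 0 and 6 upregulated fusion genes (6, 0 and 0 on removal of WT replicates 1, 2 and 3, and 4, 0 and 5 on removal of *Xap5l* KO replicates 1, 2 and 3), and between 1 and 2402 upregulated and 1 and 443 downregulated genes in the whole table. In that order the whole-table counts were 1912, 1, 1, 483, 1 and 2402 upregulated and 349, 1, 1, 71, 2 and 443 downregulated genes, against 1589 and 267 with all libraries. Scaling by library size only left 149 downregulated genes, and dropping the fold change threshold gave 643. The cause of the lost calls was not tested.

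In testes, dropping the fold change threshold gave 4202 upregulated and 4734 downregulated genes and 1 downregulated fusion gene, *Izumo4*. Leaving out 1 library gave between 0 and 2 downregulated fusion genes, with 1 without WT replicate 3 (*Izumo4*) and 2 without *Xap5* cKO replicate 3 (*Izumo1* and *Izumo4*). In that order, these fits called 1955 and 1860 genes downregulated in the whole table, against 1837 with all libraries. *Spaca6* in testes changed sign without WT replicate 2, with a log2 fold change of -0.0273, and stood at 0.791 without WT replicate 3. *Izumo1* and *Dcst2* in testes have no value with at least 10 counts in every library, which they do not reach. Low counts per gene limit the testis values, and 4 of the 8 fusion genes did not pass the filter.

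The labels do not say whether replicate numbers pair the samples. Deviations of same-numbered libraries correlated at 0.149, -0.023 and -0.081 in sperm and at 0.013, -0.014 and -0.008 in testes. Not every sample correlated best with its own number, but replicate 1 of WT and *Xap5l* KO sperm did so with each other. These libraries also had the lowest TMM factors in sperm (0.821 and 0.808). Whether they shared a batch was not tested. With the replicate block, sperm gave 1147 upregulated and 147 downregulated genes and 5 upregulated fusion genes, with *Izumo2* at an edgeR adjusted p of 0.0758, 0 of 9 elongating spermatid genes upregulated and 3 of 5 red blood cell genes downregulated, and testes gave 661 and 1782 with 0 fusion genes called.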
